A study of Mus musculus with 3 samples.

Results

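The replication-dependent histone genes were followed here in single cells of the Eed cKO mouse cerebellum. They were taken as every gene whose symbol began with Hist1h, Hist2h, Hist3h or Hist4h, which gave 45 of the 16181 genes in the count tables. All 45 matched genes of the GENCODE M21 annotation. They comprised 5 genes for linker histone H1, 15 for H2A, 12 for H2B, 5 for H3 and 8 for H4. By cluster, 36 were Hist1 genes, 6 were Hist2 genes on chromosome 3, 2 were Hist3 genes on chromosome 11 and 1 was a Hist4 gene on chromosome 6. Of the Hist1 genes, 35 lay between 21715763 and 23934851 of chromosome 13, and Hist1h2al lay apart at 51202727 to 51203065 of that chromosome.

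The cells came from 3 mice, with 1 Drop-seq library from each. All mice carried Math1-Cre and 2 floxed Eed alleles (Math1-Cre/Eed fl/fl, on a C57BL/6 background), were killed at P7, day 7 after birth, and had received no treatment. Cre was driven by the Atoh1 (Math1) promoter, so that the deletion was directed to Atoh1-expressing progenitors and their descendants, among them the cerebellar granule neuron progenitors (CGNPs), and not to the other cell types. All cell groups therefore came from animals of one genotype. Cells of wild-type mice were not analysed here, so no value below is a difference between genotypes.

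Filters on UMIs, genes and mitochondrial transcripts left 918, 547 and 908 cells in mice 1, 2 and 3, with median UMIs per cell of 919.5, 857 and 1408. A UMI is the tag of 1 captured RNA molecule. No cell barcode was shared between libraries. Eed itself held 43, 18 and 53 UMIs, but tags near the 3′ end of an mRNA do not read a deletion elsewhere in the gene, so these counts are no check of the genotype. Before any cell filter a gene was listed in each library either in no barcode or in at least 3, so a member listed at 0 in a mouse may have been present in fewer than 3 barcodes. Members listed at 0 numbered 8, 16 and 11 in mice 1, 2 and 3. Cells were clustered without any histone gene, chaperone or processing factor among the variable genes, so the clusters were not drawn from the values reported here. Clusters were named from marker lists as proliferating CGNP-like (652 cells), differentiating CGNP/CGN-like (526 cells, CGN for cerebellar granule neuron), interneuron progenitor-like (193), interneuron-like (340), myoid-like (81) and 6 glial, vascular or myeloid types, with 174 cells in 1 cluster left unnamed.

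Core histones H2A, H2B, H3 and H4 form the protein spool of the nucleosome, and linker histone H1 binds the DNA where it enters and leaves that spool. The replication-dependent genes supply these proteins for new chromatin and are transcribed mainly in S phase. Their mRNAs normally end in a conserved stem-loop, bound by SLBP, and lack the poly(A) tail of other mRNAs. Drop-seq beads capture RNA by poly(T), so such mRNAs are poorly captured unless they are polyadenylated or primed internally. In the P7 cerebellum, CGNPs divide in the external granule layer before they differentiate into granule neurons.

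The promoters of the 4 members with the most UMIs are printed here because the 2 Hist1 genes and the 2 Hist3 genes among them differed in opposite directions between dividing and differentiating cells. The sequences run from 250 bases before to 50 bases after the annotated start, come from RefSeq on GRCm38.p6 (RefSeq names H1f5, H1f4, H2aw and H2bu2), and have in capitals each match on either strand to AAACACA (the H1 box), CCAAT or TATAAA.
Hist1h1b promoter, chr13:21780576-21780875 (- strand): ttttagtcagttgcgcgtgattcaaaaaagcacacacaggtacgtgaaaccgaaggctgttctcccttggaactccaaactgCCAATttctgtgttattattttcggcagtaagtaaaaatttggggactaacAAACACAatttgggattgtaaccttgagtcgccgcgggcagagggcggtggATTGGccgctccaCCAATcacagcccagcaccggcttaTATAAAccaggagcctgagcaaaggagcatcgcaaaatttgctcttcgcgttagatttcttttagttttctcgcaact
Hist1h1e promoter, chr13:23622509-23622808 (- strand): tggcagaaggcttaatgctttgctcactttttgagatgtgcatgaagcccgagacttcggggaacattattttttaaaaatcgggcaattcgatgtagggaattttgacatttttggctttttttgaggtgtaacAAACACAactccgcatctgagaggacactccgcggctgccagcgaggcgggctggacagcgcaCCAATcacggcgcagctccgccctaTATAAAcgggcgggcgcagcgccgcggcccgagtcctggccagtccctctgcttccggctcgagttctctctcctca
Hist3h2a promoter, chr11:58954435-58954734 (+ strand): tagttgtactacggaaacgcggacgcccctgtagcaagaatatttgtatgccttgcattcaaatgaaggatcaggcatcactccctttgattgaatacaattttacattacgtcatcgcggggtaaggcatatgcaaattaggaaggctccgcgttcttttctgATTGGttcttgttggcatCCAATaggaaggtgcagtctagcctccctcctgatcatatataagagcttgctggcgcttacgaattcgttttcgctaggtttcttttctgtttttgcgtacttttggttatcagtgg
Hist3h2ba promoter, chr11:58948661-58948960 (+ strand): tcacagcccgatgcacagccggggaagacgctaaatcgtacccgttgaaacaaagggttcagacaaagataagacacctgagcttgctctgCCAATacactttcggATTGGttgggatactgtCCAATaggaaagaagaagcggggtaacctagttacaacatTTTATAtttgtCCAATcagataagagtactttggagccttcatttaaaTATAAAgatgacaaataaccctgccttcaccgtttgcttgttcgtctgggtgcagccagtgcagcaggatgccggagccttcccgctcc
Hist1h1b and Hist1h1e each had 1 AAACACA, at -117 and -115 from the start, a CCAAT at -53 and -52, and a TATAAA at -28 and -27. These 3 matches lay within 2 bases of each other in both promoters, while Hist1h1b had further CCAAT matches at -168 and -66 that Hist1h1e lacked. Neither Hist3 promoter held AAACACA. Among 32851 promoters of this length, 7.18% held AAACACA, 37.4% CCAAT and 13.6% TATAAA on either strand, against 8, 36 and 25 of the 41 members with a promoter in the table. Of the 5 H1 genes, 4 held AAACACA. A match describes the letters only, and no binding was measured.

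The 3′ ends of the models are shown for the 4 leading members in which the stem-loop was found, and for 1 H3 and 1 H4 gene with other letters in it. Capitals mark the 16 bases that matched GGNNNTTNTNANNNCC after the stop codon, in GENCODE M21 transcripts on GRCm38.
Hist1h1e stem-loop, chr13:23621775-23621804 (- strand): acccaaaGGCTCTTTTCAGAGCCacccaca
Hist1h2ae stem-loop, chr13:23570661-23570690 (- strand): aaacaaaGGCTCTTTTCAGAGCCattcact
Hist3h2a stem-loop, chr11:58955165-58955194 (+ strand): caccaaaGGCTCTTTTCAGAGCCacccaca
Hist3h2ba stem-loop, chr11:58949342-58949371 (+ strand): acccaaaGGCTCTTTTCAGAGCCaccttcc
Hist1h3c stem-loop, chr13:23745040-23745069 (- strand): aaaaaaaGGCTCTTTTAAGAGCCacctaag
Hist1h4i stem-loop, chr13:22040959-22040988 (- strand): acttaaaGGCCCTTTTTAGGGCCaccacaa
Of the 30 members whose model ran at least 50 bases past the stop codon, 27 had such a match, and 16 of these had the same 16 letters as Hist1h1e. The 27 members with a match held 1512 UMIs, or 49.2% of those of all members. The models of another 14 protein-coding members, Hist1h1b among them, ended within 50 bases of the stop codon and could not show a stem-loop. Some models ran far past the stem-loop, by 1153 bases in Hist1h1e, 1643 in Hist3h2a and 169 in Hist3h2ba, the latter pair with a poly(A) signal (AATAAA or ATTAAA) after it. The 16 members with at least 100 bases after the stem-loop had a median of 10.5 UMIs, and the 11 with fewer had a median of 11. The first set, with 4 of the 6 leading members, held 1356 UMIs in all and the second 156.

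In all, the 45 members held 3071 UMIs in passing cells, or 0.0997% of all UMIs. Per mouse this was 1180, 688 and 1203 UMIs, or 1176, 1272 and 783 CPM (UMIs per 1000000 UMIs of the same cells, the unit of all levels here). Hist1h1b, a linker histone gene, led with 1082 UMIs, and Hist1h1e, another H1 gene, followed with 580. The next were Hist3h2ba (H2B) with 289, Hist3h2a (H2A) with 280 and Hist1h2al (an H2A-like gene) with 153. These 5 members held 77.6% of the UMIs, while 19 members had fewer than 10 each. H1 genes held 56.0% of the UMIs, H2A genes 26.15% and H2B genes 14.6%. The 5 H3 genes held 41 UMIs and the 8 H4 genes 57. Each UMI counts 1 captured molecule whatever the length of the RNA, but capture depends on a poly(A) stretch, so this order is one of captured molecules.

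**Figure D1:**
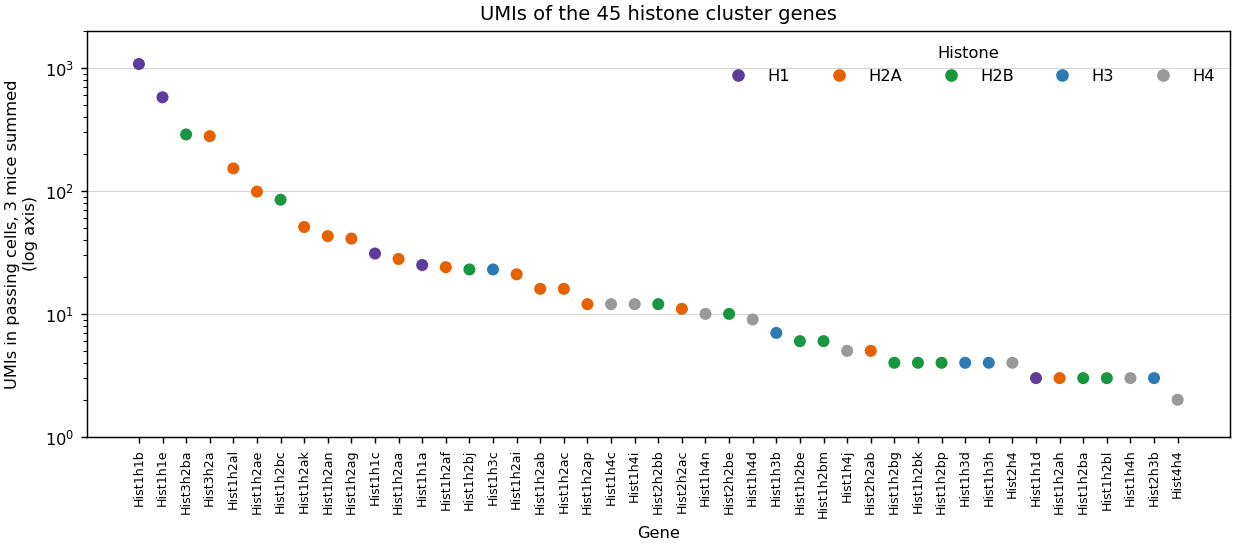
UMIs of each of the 45 members in passing cells of the 3 mice together (y axis, log scale), ordered from most to fewest and coloured by histone. Hist1h1b stands at 1082 and Hist1h1e at 580, and every H3 and H4 gene is at 23 or fewer.

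Some members could not be told apart fully from other genes. Hist1h2al is annotated as a processed pseudogene, and 67.6% of its 50-base stretches occur in another histone gene. For 16 members over 50% of these stretches were shared, and these held 418 UMIs. No stretch of Hist1h1b was shared, against 22.1% in Hist3h2ba, 32% in Hist1h1e and 43.2% in Hist1h2ae. Hist3h2a (chr11:58954685-58956830, + strand) overlaps Trim17, and Hist1h1e (chr13:23620629-23622558, - strand) overlaps, with its 3′ end, the 5′ start of a long Hist1h2be model (chr13:23583670-23621124) on the same strand. How the counting divided such reads is not given in the sources used here.

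In proliferating CGNP-like cells Hist1h1b stood at 1003, 874 and 491 CPM in mice 1, 2 and 3. The level in interneuron progenitor-like cells was 987, 1775 and 550. Differentiating CGNP/CGN-like cells held 57.95, 38.8 and 3.91, and interneuron-like cells 60, 49.8 and 18.0. Every mouse thus had the gene at a high level in both progenitor types and at a low level in both neuronal types, with no overlap between them. Among other types, pericyte-like cells stood at 313 ± 44.5 (SD, n = 3 mice), myeloid-like at 205 ± 66.6 and astrocyte-like at 104 ± 12.6. These levels rest on few counts, with a UMI in 6 of 30 pericyte-like, 6 of 49 myeloid-like and 7 of 108 astrocyte-like cells. Oligodendrocyte-like cells spread from 126 to 788 between mice, a range that holds all 3 pericyte-like values. Myoid-like cells had 76.3 ± 69.8, a range that overlapped both neuronal types.

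Hist1h1e followed with a smaller range. Proliferating CGNP-like cells held 313, 399 and 326 CPM and interneuron progenitor-like cells 385.5, 641 and 349. The corresponding neuronal levels were 89.6, 109 and 74.3 in differentiating CGNP/CGN-like cells and 60, 149 and 40.6 in interneuron-like cells. Pericyte-like cells, at 341 ± 78.8 (SD, n = 3 mice), overlapped the progenitor types, though on 11 UMIs.

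**Figure D2:**
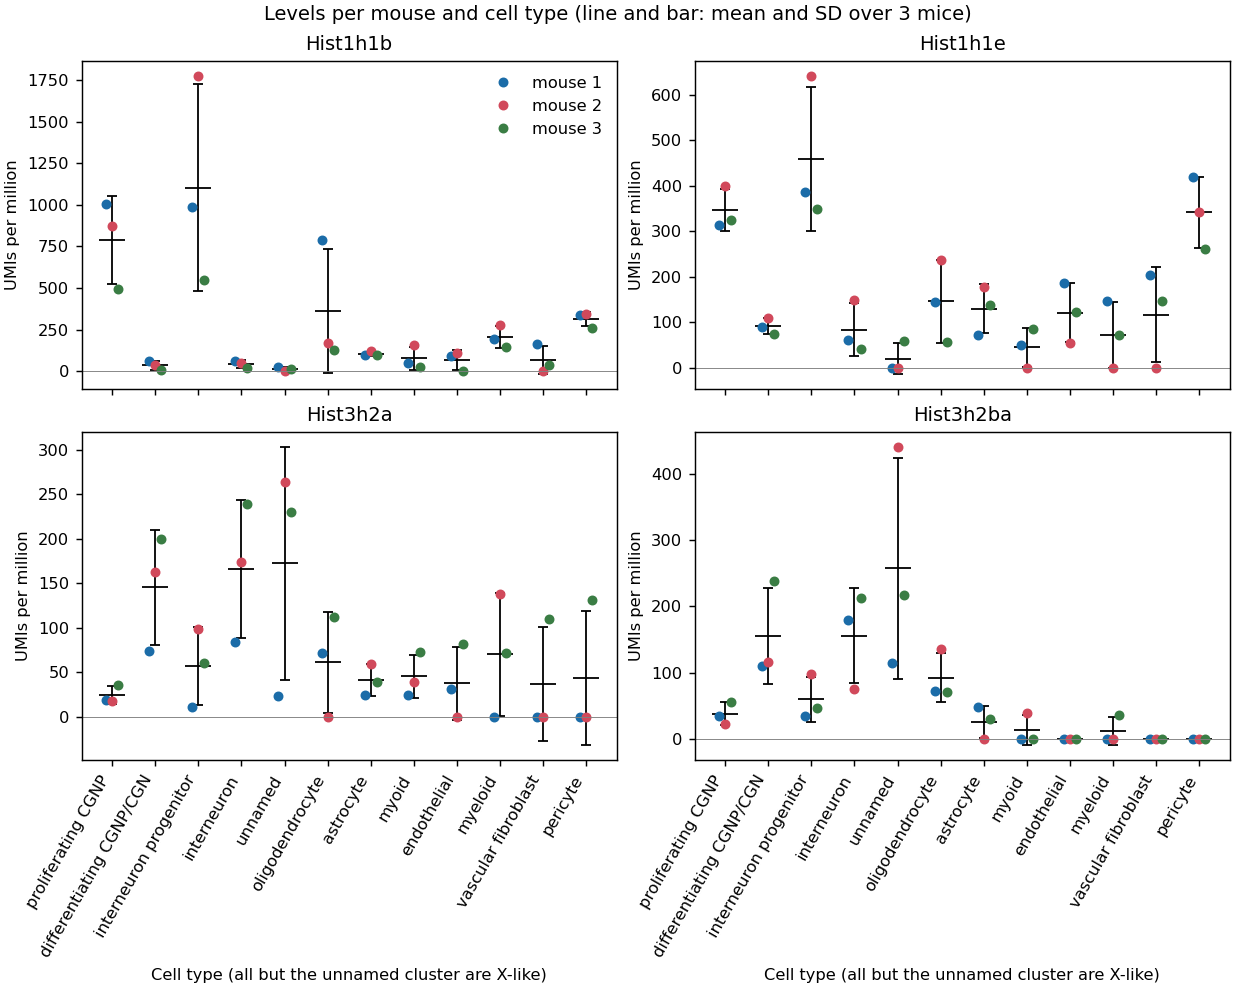
Levels of Hist1h1b, Hist1h1e, Hist3h2a and Hist3h2ba in CPM (y axes) in each cell type (x axis), with 1 point per mouse and a line and bar for the mean and SD of the 3 mice. The H1 genes are highest in the progenitor types, where Hist1h1b averages 789 and 1104. The Hist3 genes are highest in the unnamed cluster and the neuronal types.

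The first comparison asked which members differ between proliferating and differentiating cells of the granule lineage. The H1 genes Hist1h1b and Hist1h1e and the H2A genes Hist1h2ae and Hist1h2al were higher in proliferating cells, the last not in every setting, and both Hist3 genes were lower. Only 6 of the 45 members passed the filter on low counts (edgeR's filterByExpr), and of these 4 rose and 2 fell at an adjusted p under 0.05. Of all 4991 genes tested, 13.6% were higher and 14.5% lower. A member with few UMIs passes this filter only where one group is high, so the share of members called is not comparable with these percentages. Hist1h1b was higher by 4.67 ± 0.43 on the log2 scale (SE, edgeR quasi-likelihood test, Benjamini-Hochberg adjusted p = 1.85e-07). Here and below, the SE of an edgeR difference is approximate. Hist1h1e was higher by 1.95 ± 0.25 (adjusted p = 6.99e-06, edgeR). Both differences held in each of 10 other settings.

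Core histone genes of the Hist1 cluster were less abundant. Hist1h2ae, an H2A gene, held 59.3, 71.7 and 76.95 CPM in proliferating cells and 0, 23.3 and 3.91 in differentiating cells. The groups did not overlap, and the difference was 3.20 ± 0.61 on the log2 scale (SE, edgeR adjusted p = 5.59e-04). For Hist1h2al the values were 108, 76.2 and 38.5 against 21.1, 54.3 and 11.7, which overlap. Its difference of 1.55 ± 0.52 (edgeR adjusted p = 0.0292) did not pass with DESeq2 (adjusted p = 0.0669) or without mouse 1 (edgeR adjusted p = 0.332), with adjusted p values from 0.00188 to 0.332 over the 8 other settings with the filter that tested it.

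With no filter on low counts all 45 members were tested, and 11 were higher and 2 lower (edgeR, adjusted p under 0.05). Of all 15390 genes in that fit, 6.65% were higher and 5.05% lower. The 7 further members were Hist1h1a, Hist1h2ag, Hist1h2ai, Hist1h2ak, Hist1h2an, Hist1h2bj and Hist1h3c, with 13 to 34 UMIs in proliferating cells and 0 to 2 in differentiating cells. In 30 members differentiating cells had no UMI at all. H3 genes together had 25 UMIs in proliferating and 0 in differentiating cells, and H4 genes 30 and 5. Summed over all members, proliferating cells held 1898, 1908 and 1258 CPM and differentiating cells 390, 559 and 552. Without Hist1h1b these sums were 895, 1035 and 766.5 against 332, 520.0 and 548, still without overlap. Since the 5 erythroid markers also varied in these groups, their summed level is given beside these values, at 394 to 4623 CPM in proliferating and 129 to 1818 in differentiating cells. Its part in the differences was not tested.

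The Hist3 genes showed the opposite order. Hist3h2a, an H2A gene, stood at 18.9, 17.9 and 35.5 CPM in proliferating and 73.8, 163 and 200 in differentiating cells. It was lower in proliferating cells by 2.56 on the log2 scale (SE 0.41, edgeR adjusted p = 9.48e-05). Hist3h2ba, its H2B neighbour on chromosome 11, stood at 35.1, 22.4 and 56.2 against 111, 116 and 239. The difference was -2.04 ± 0.37 (edgeR adjusted p = 3.51e-04). Neither gene's groups overlapped, and both calls held in each of 10 other settings. Interneuron-like cells overlapped differentiating granule cells, with 166 ± 77.8 for Hist3h2a and 156 ± 71.8 for Hist3h2ba (SD, n = 3 mice). Among the glial, vascular and myeloid types Hist3h2a averaged between 36.7 and 69.99. Hist3h2ba had no UMI in endothelial-like, vascular fibroblast-like or pericyte-like cells, which allows up to 39.9, 45.9 and 90.8 CPM (3 counts, counting error only). In oligodendrocyte-like cells it stood at 92.5 ± 37.5, the highest mean of these types.

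Progenitors and neurons of the interneuron lineage, which Math1-Cre does not target, were compared in the same way. The progenitor-like cluster met 8 naming markers of its own type and 7 of proliferating CGNPs. The interneuron-like cluster met 6 of its own and 3 of differentiating granule cells. At a finer clustering resolution the groups held 289 and 243 cells, against 193 and 340 here. Whether granule lineage cells lie in these groups was not tested. Of 2047 genes tested, 9.92% were higher and 8.45% lower in the progenitors, and the 2 members that passed the filter were both higher. Hist1h1b differed by 4.78 ± 0.47 and Hist1h1e by 2.69 ± 0.41 on the log2 scale (SE, edgeR adjusted p = 4.40e-08 and 2.09e-05), and each held in 11 other settings. Hist3h2a and Hist3h2ba did not pass the filter with all 3 mice and were lower without it, where 1.55% of 13973 genes were lower, by -1.92 ± 0.52 and -1.87 ± 0.52 (edgeR adjusted p = 0.00957 and 0.0127), although their values overlapped between the groups. With the filter, Hist3h2a was tested without mouse 1 (-1.73, adjusted p = 0.0306) and Hist3h2ba without mouse 2 (-2.24, adjusted p = 0.00339), both again lower with edgeR. Hist1h1b was thus higher and the Hist3 genes lower in progenitors of both lineages in the unfiltered fit.

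Whether the contrast differed between the lineages was tested directly with an interaction term. Of 4829 genes, 0.352% were called with a higher signed log2 difference (progenitor over neuron) in the granule lineage and 1.01% with a lower one. None of the 6 members tested was called by edgeR or DESeq2, and none had an unadjusted p under 0.05 with either tool, while 1 did at an upper cell limit of 2 SD. For Hist1h1b the lineages differed by -0.18 ± 0.83 on the log2 scale and for Hist1h1e by -0.79 ± 0.48 (SE, edgeR adjusted p = 0.974 and 0.652).

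Cells of the granule lineage were then divided by phase genes. Each cell was thinned to 500 UMIs, and those with at least 3 UMIs of a list of 38 S-phase genes, of 50 G2/M genes, or of each were set apart, which gave 576 cells with neither, 89 S-only, 216 with both and 297 G2/M-only. The lists hold none of the genes reported here. Of the 1178 cells, 19.0% lay at or 1 UMI below the cut for the S list and 23.9% for the G2/M list, and another random draw moved 21.3% to another class, so the classes are ranges and not states.

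Hist1h1b stood highest in cells with both sets of genes, at 1763, 1544 and 864 CPM. G2/M-only cells held 685, 589 and 398, and cells with neither held 103, 34.1 and 7.46. S-only cells held 279, 299 and 0, the last with a limit of 66.4 at 3 counts. Hist1h1b was thus lower in S-only cells than in either class with G2/M genes, in all 3 mice. Hist1h1e had 427, 596 and 401.5 in cells with both, 301, 396 and 368 in G2/M-only cells, 76.0, 225 and 0 in S-only cells, and 98.65, 61.4 and 82.1 in cells with neither. Cells with both and G2/M-only cells did not overlap but lay close together, and S-only cells lay on either side of the cells with neither.

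**Figure D3:**
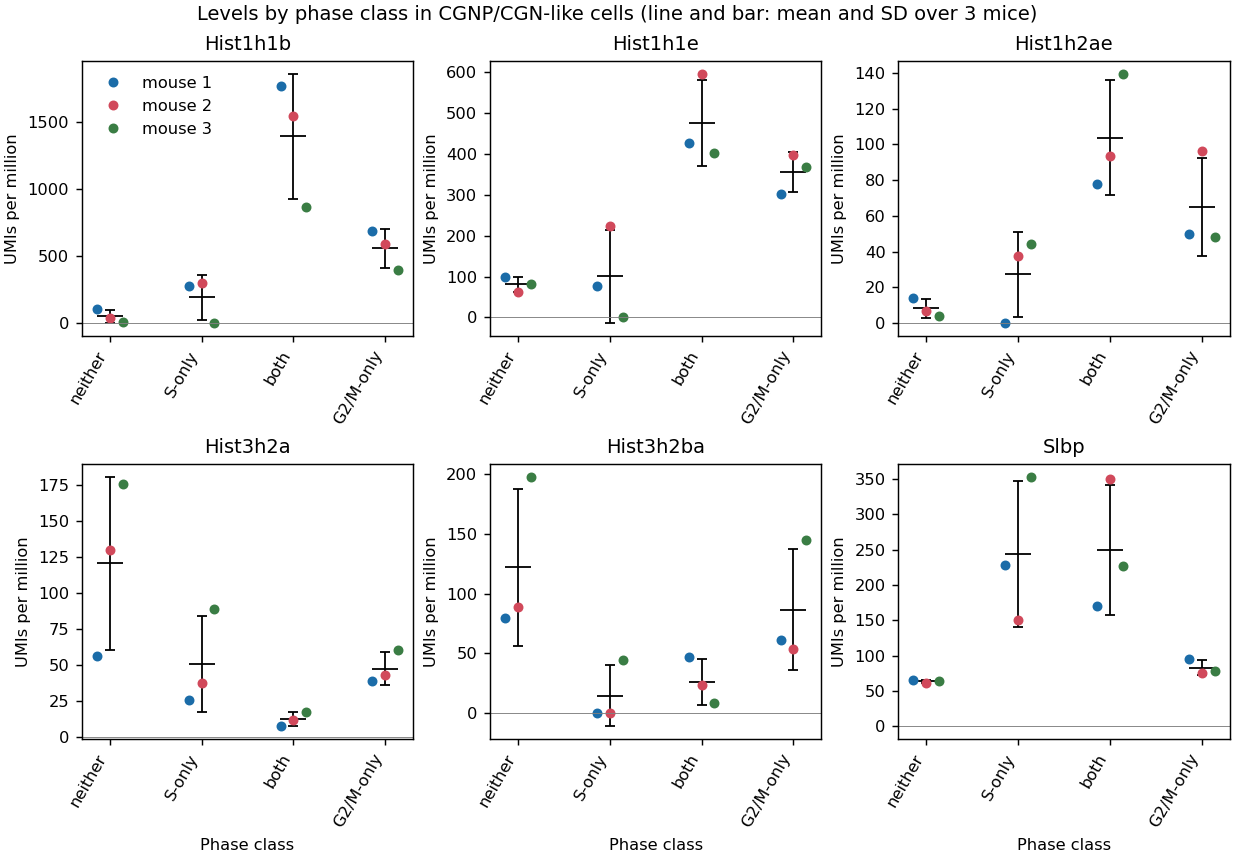
Levels of 5 members and of Slbp in CPM (y axes) in the 4 phase classes of CGNP/CGN-like cells (x axes), with 1 point per mouse and a line and bar for the mean and SD of the 3 mice. Hist1h1b, Hist1h1e and Hist1h2ae are highest in cells with both gene sets, whereas Slbp averages 244 in S-only cells and 250 in cells with both.

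Tests between the classes rested on few S-only cells. In G2/M-only against S-only cells, 2.68% of 1640 genes were higher and 0.915% lower, and 1 of the 2 members that passed the filter was higher. Hist1h1e differed by 2.10 ± 0.54 on the log2 scale (SE, edgeR adjusted p = 0.0413), but not without mouse 1 (adjusted p = 0.117) or mouse 3 (0.295). Nor was any member called at a minimum of 1000 UMIs per cell or at a class cut of 2 UMIs. Hist1h1b differed by 1.69 ± 0.54 (edgeR adjusted p = 0.123) and passed when mice were entered as a block (1.72, adjusted p = 0.0194). That fit compares the classes within each animal and raised the members called from 1 to 2.

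Cells with both gene sets were set against the other classes after their levels had been seen. Against S-only cells, 2.08% of 1493 genes were higher and 0.134% lower, and both members tested were higher. The differences were 2.97 ± 0.49 for Hist1h1b and 2.48 ± 0.53 for Hist1h1e (SE, edgeR adjusted p = 0.00133 and 0.0129). Hist1h1b did not pass with DESeq2 (adjusted p = 0.34). Neither passed without mouse 1 (edgeR adjusted p = 0.0502 and 0.263) or without mouse 2 (0.102 and 0.0705), and Hist1h1e did not without mouse 3 (0.136). Against G2/M-only cells, 1.31% of 2818 genes were higher and 0.461% lower, and 1 of 4 members tested was higher. Hist1h1b differed by 1.30 ± 0.26 (SE, edgeR adjusted p = 0.0118), while without mouse 1 or mouse 2 the adjusted p was 0.147 and 0.363. No member was called at a class cut of 5 UMIs or with another draw of 500 UMIs. Hist1h1e differed by 0.41 ± 0.24 in that comparison and did not pass (edgeR adjusted p = 0.661).

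Between S-only cells and cells with neither, no member passed the filter, while 4.28% of the 2222 genes tested were higher and 5.63% lower. Without the filter 1.87% of 14443 genes were lower in S-only cells, and Hist3h2ba was called lower, with 2 UMIs against 83 (-3.11 ± 0.76 on the log2 scale, SE, edgeR adjusted p = 0.00404). The pooled levels had a ratio of 0.136, with a counting interval from 0.0162 to 0.506 (95%, exact). In the same fit Hist1h1b, with 19 UMIs against 29, was not called (edgeR adjusted p = 0.112), although it passed without mouse 3 (adjusted p = 0.0139). Over the 5 settings other than that unfiltered fit that tested it, its adjusted p ran from 0.0139 to 0.696.

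Among core histones, H2A genes together had 492 ± 111 CPM in cells with both gene sets, 355 ± 51.6 in G2/M-only, 184 ± 112 in S-only and 170 ± 45.4 in cells with neither (SD, n = 3 mice). The 34 Hist1h2ae UMIs of the first class gave 77.7, 93.6 and 140 CPM, above the 14.1, 6.83 and 3.73 of cells with neither. H3 genes had 15 UMIs in cells with both, 10 in G2/M-only cells and 0 in the other classes. H2B genes together, Hist3h2ba among them, had 163 ± 58.7 CPM in G2/M-only cells and 135 ± 62.0 in cells with neither. In cells with both they had 85.9 ± 67.3, and in S-only cells 27.2 ± 23.8 (SD, n = 3 mice). The Hist3 genes had another order. Hist3h2a was lowest in cells with both, at 12.3 ± 4.87, against 50.4 ± 33.5 in S-only cells, 47.4 ± 11.4 in G2/M-only cells and 121 ± 60.1 in cells with neither. Hist3h2ba was lowest in S-only cells, at 14.7 ± 25.5 on 2 UMIs, with 26.2 ± 19.1 in cells with both, 86.5 ± 50.6 in G2/M-only cells and 122 ± 65.7 in cells with neither, of which the last 2 overlapped.

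The cells were also divided more finely by their G2/M-list UMIs. At under 3 S-list UMIs, Hist1h1b was 40.9 ± 26.3 CPM in cells with no G2/M-list UMI, 101 ± 112 at 3 to 5, 542 ± 89.9 at 6 to 9 and 911 ± 317 at 10 or more (SD, n = 3 mice). At 3 or more S-list UMIs it was 238 ± 206.5 at 1 to 2 G2/M-list UMIs, 900.3 ± 333 at 3 to 5, 1759 ± 750 at 6 to 9 and 1651 ± 678 at 10 or more. Mean Hist1h1b was thus higher at more G2/M-list UMIs in either S class up to 9, and higher in the upper S class. Hist1h1e at 10 or more G2/M-list UMIs was 471 ± 64.9 and 689 ± 306 for the lower and higher S class, within their spread. Hist3h2a in the lower S class averaged 124 ± 79.1 in cells with no G2/M-list UMI and 14.1 ± 15.9 at 10 or more. These bins are a description, with no test.

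**Figure D4:**
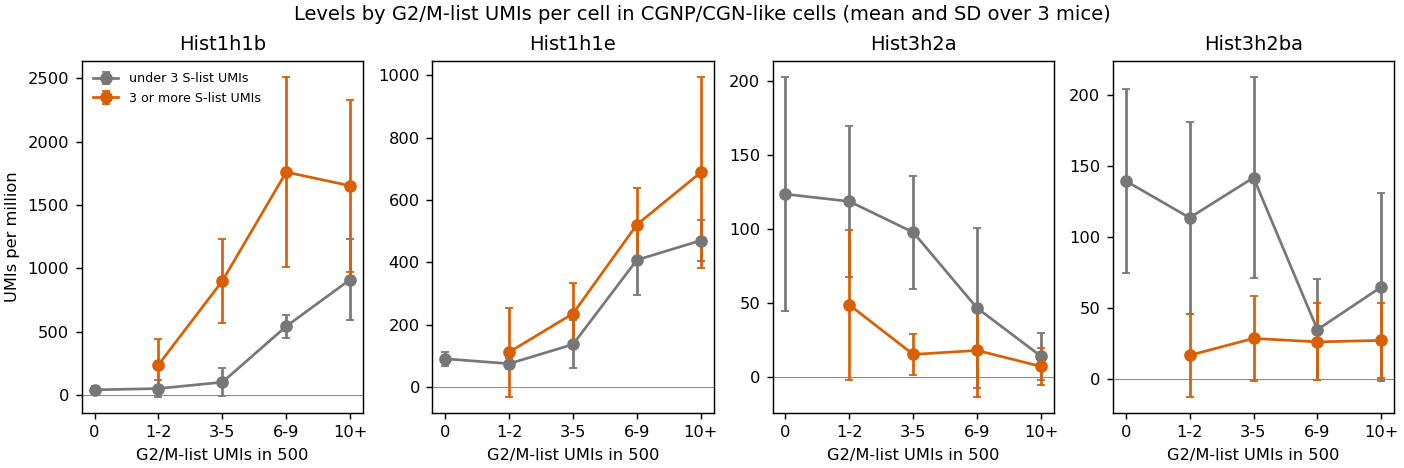
Levels of 4 members in CPM (y axes) against the number of G2/M-list UMIs in 500 UMIs of a cell (x axes), for CGNP/CGN-like cells with fewer than 3 or at least 3 S-list UMIs, as the mean and SD of 3 mice. Bins of under 20 cells were left out. Hist1h1b stands at 911 and 1651 at the right end of the lines, and Hist3h2a at 14.1 and 7.25.

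Proliferating CGNP-like cells fell into 2 clusters, of which 1 (243 cells) was led by mitotic genes such as Ube2c, Nusap1 and Cenpe, and the other (409 cells) by genes such as Mcm6, Ung and Ccne2. The G2/M-marker cluster held 1423, 1769 and 702 CPM of Hist1h1b, and the other cluster 650, 270 and 264. For Hist1h1e the values were 449, 834 and 497 against 199, 105 and 141. Hist1h2ae stood at 94.5, 122 and 108.5 against 29.8, 37.5 and 43.0. All 3 genes had non-overlapping groups. In this comparison 3.43% of 3562 genes were higher and 0.59% lower, and the 3 members that passed the filter were all higher.

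The differences were 1.70 ± 0.34 for Hist1h1b, 1.95 ± 0.29 for Hist1h1e and 1.56 ± 0.40 for Hist1h2ae on the log2 scale (SE, edgeR adjusted p = 0.00279, 1.41e-04 and 0.0249). Hist1h1b did not pass with DESeq2 (adjusted p = 0.0724) or without mouse 2 (edgeR adjusted p = 0.196). Hist1h2ae did not pass with DESeq2 (adjusted p = 0.133) or without mouse 1, 2 or 3 (edgeR adjusted p = 0.244, 0.193 and 0.153), and passed in 4 of 10 other settings with the filter. Hist1h1e passed with DESeq2 and without each mouse. When histone genes were allowed to shape the clusters, none of 5 members tested was called, and the cause was not tested. In that fit Hist1h1b turned to -0.44 and Hist1h1e to 0.24 (edgeR adjusted p = 0.62 and 0.821). The erythroid markers, led by Hbb-bs in the other cluster, summed to 398 to 9419 CPM there and 166 to 389 in the G2/M-marker cluster, and their part in the differences was not tested.

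**Figure D5:**
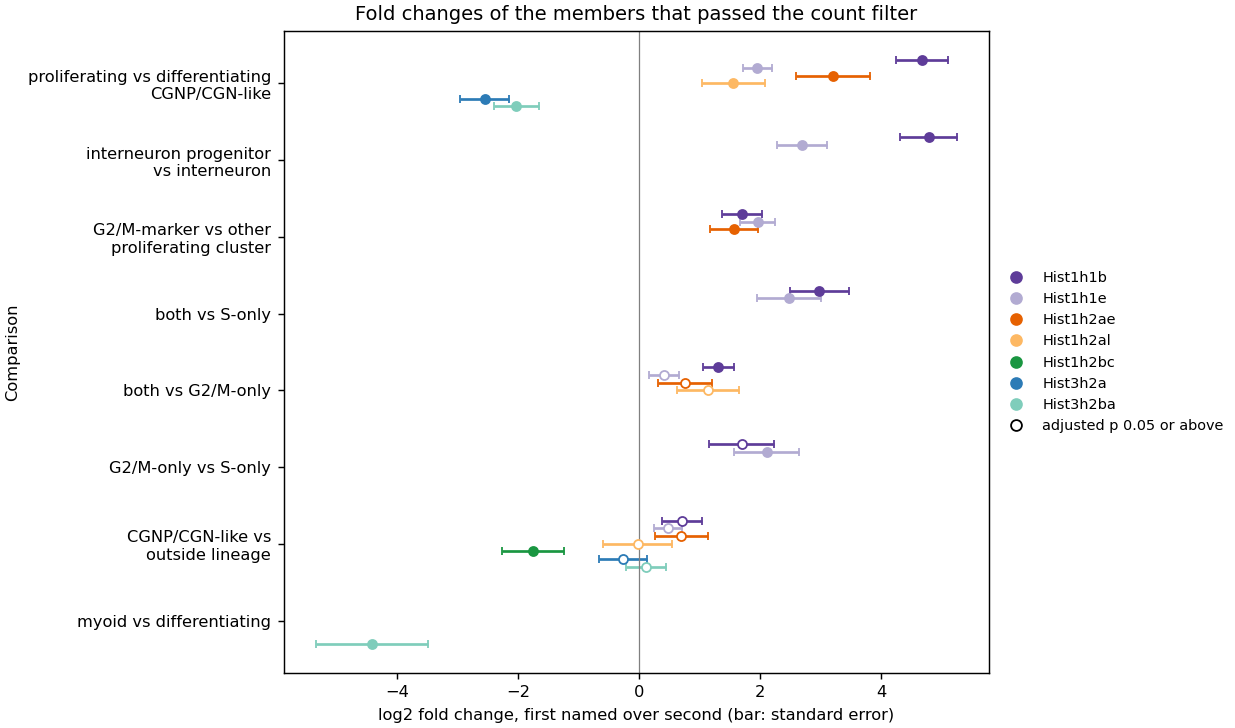
Log2 fold changes (x axis, bars show an approximate standard error) of the members that passed the count filter in 8 comparisons (y axis), from edgeR. Filled points passed an adjusted p of 0.05. The H1 genes lie to the right in the progenitor and mitotic comparisons. Both Hist3 genes lie to the left in the first comparison, and Hist3h2ba in the last.

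Granule lineage cells, with Eed targeted, were also compared with the cell types outside the Atoh1 lineage. The Eed deletion, the lineage and the cell types all differ between these groups, and they cannot be told apart here. Of 7608 genes, 3.93% were higher and 8.79% lower, and of the 7 members tested 1 was called, lower. Hist1h2bc, an H2B gene, stood at 10.7, 31.2 and 8.43 CPM in the lineage and 41.8, 92.3 and 40.7 outside it, without overlap. Its difference was -1.76 ± 0.51 on the log2 scale (SE, edgeR adjusted p = 0.0298), and it did not pass without mouse 1 (adjusted p = 0.201) or mouse 3 (0.0866), with adjusted p values from 8.13e-04 to 0.201 over 11 other settings with the filter, of which 6 passed. Within the outside types the mean of Hist1h2bc was highest in myeloid-like (189 ± 164), astrocyte-like (149 ± 83.5), vascular fibroblast-like (113 ± 33.5) and oligodendrocyte-like cells (85.9 ± 77.1), with wide spreads. Lower means were found in endothelial-like (34.2 ± 31.4), interneuron-like (13.8 ± 10.3) and interneuron progenitor-like cells (4.47 ± 7.75; SD, n = 3 mice). Pericyte-like cells had no UMI of it, which allows up to 90.8 CPM.

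Hist1h1b differed by 0.70 ± 0.32 in this comparison and Hist1h1e by 0.47 ± 0.22 (SE, edgeR adjusted p = 0.201 and 0.221). With mice as a block both were called higher in the lineage (adjusted p = 1.53e-04 and 0.0265), and the members called went from 1 to 3. The erythroid markers summed to 758 to 2688 CPM in the lineage and 152 to 6271 outside it. The proportion of dividing cells also differs between these groups, and its part was not tested.

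Myoid-like cells, a muscle-like population that expressed Myog, Actc1 and Myh3, were set against differentiating CGNP/CGN-like cells. Among 2529 genes 13.1% were higher and 18.1% lower, and the only member tested, Hist3h2ba, was lower. It passed the filter only through the differentiating cells, where it was high, so its call is not comparable with these percentages. No member was tested without mouse 3, at a minimum of 1000 UMIs or at an upper limit of 2 SD. Hist3h2ba held 1 UMI in 81 myoid-like cells and 97 in 526 differentiating cells. The ratio of pooled levels was 0.0397, with a counting interval from 9.94e-04 to 0.226 (95%, exact). The fitted difference was -4.42 ± 0.93 on the log2 scale (SE, edgeR adjusted p = 6.45e-04). Hist3h2a stood at 45.3 ± 24.5 CPM in myoid-like cells (SD, n = 3 mice, 8 UMIs) and did not pass the filter with all 3 mice. Without the filter, where 5.39% of 14424 genes were lower, it was lower by -1.66 ± 0.55 (SE, edgeR adjusted p = 0.034), but with the filter it was not called without mouse 1 (-1.51, edgeR adjusted p = 0.0825) or mouse 2 (-1.24, 0.201). All members together had 318 ± 131 CPM in myoid-like cells, against 500.1 ± 95.5 in differentiating granule cells, and H1 genes 142 ± 46.0 against 131 ± 39.2.

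Per cell, a Hist1h1b UMI was seen in 29.5% ± 4.025 of proliferating CGNP-like cells (SD, n = 3 mice), at a median of 1160 UMIs, and in 3.31% ± 0.995 of interneuron-like cells, the neuronal type outside the lineage taken as the background, at a median of 875.5. Of these 340 interneuron-like cells, 271 had neither set of phase genes, 14 were S-only, 8 had both and 47 were G2/M-only, so the background may include dividing cells. With every cell thinned to 500 UMIs the shares were 18.75% ± 2.675 and 3.13% ± 1.31. Differentiating CGNP/CGN-like cells had 2.80% ± 2.03, no more than that background. Of 652 proliferating cells, 454 had no Hist1h1b UMI and 89 had at least 3, with up to 21 in a cell, while no differentiating or interneuron-like cell had more than 2. Hist3h2ba went the other way, in 5.54% ± 4.72 of proliferating and 14.8% ± 8.87 of differentiating cells (1.53% ± 0.900 and 6.28% ± 1.95 when thinned).

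The ratio of Hist1h1b to Hist1h1e was not the same in each type of a library. It was 3.21, 2.19 and 1.51 in proliferating CGNP-like cells of mice 1, 2 and 3 and 0.647, 0.357 and 0.0526 in differentiating cells. Mouse 3, the most deeply sequenced, had the lowest Hist1h1b level of the 3 in proliferating CGNP-like, interneuron progenitor-like and both neuronal types, and the highest level of Hist3h2a in proliferating, differentiating and interneuron-like cells. For Hist1h1e mouse 3 was also lowest in the interneuron progenitor-like and both neuronal types, and lay between the others in proliferating CGNP-like cells. With 3 mice of 1 genotype, depth and animal cannot be told apart.

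Genes that act on histones were read from lists. Of 11 genes listed here as replication-independent histones, all were tested between proliferating and differentiating cells. Of these, 4 rose and none fell, with a median difference of 0.41 on the log2 scale against 0.01 for all genes. Among all genes 13.6% were higher and 14.5% lower. The 4 listed genes that rose were H2afz, H2afx, H2afv and the centromeric Cenpa. H2afx, whose protein marks DNA breaks, stood at 310 ± 59.2 against 51.4 ± 11.95 CPM (SD, n = 3 mice), and Cenpa at 347 ± 50.5 against 29.5 ± 23.4. Of 15 histone chaperones in the files, 14 were tested and 9 rose (Asf1b, Chaf1a, Chaf1b, Nasp, Ssrp1, Supt16, Nap1l1, Rbbp7 and Hjurp), with a median of 0.99. Of 11 genes for histone pre-mRNA processing and decay, 9 were tested and 1 rose, Slbp, by 1.86 ± 0.30 (SE, edgeR adjusted p = 1.15e-04), a share near that of all genes.

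Across the phase classes these genes differed in their order. H2afz had the order of the Hist1h1b and Hist1h1e means, with 259 ± 30.9 CPM in cells with neither, 501 ± 12.25 in S-only, 624 ± 78.45 in G2/M-only cells and 751 ± 75.15 in cells with both (SD, n = 3 mice). Slbp, the stem-loop binding protein gene, stood at 244 ± 103 CPM in S-only cells, 250 ± 92.1 in cells with both sets, 82.7 ± 10.5 in G2/M-only cells and 63.6 ± 2.17 in cells with neither (SD, n = 3 mice). It was higher in S-only cells than in cells with neither by 1.95 ± 0.40 on the log2 scale (SE, edgeR adjusted p = 0.00228). Between G2/M-only and S-only cells it was lower by -1.57 ± 0.41 (edgeR adjusted p = 0.0439, past the threshold in 4 of 9 other settings), where Hist1h1e was higher. Chaf1a, a subunit of the chromatin assembly factor that deposits new H3 and H4, had 230 ± 31.5 in S-only and 72.1 ± 18.5 in G2/M-only cells. H2afx and Cenpa were, like Hist1h1e, higher in G2/M-only than in S-only cells, by 2.40 ± 0.44 and 4.96 ± 0.52 (SE, edgeR adjusted p = 0.00306 and 6.35e-05).

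In the interneuron lineage 4 of 10 replication-independent histone genes and 5 of 10 chaperones tested rose in the progenitors, and 0 of 2 processing genes, where 9.92% of all genes did. In the G2/M-marker cluster 2 of 10 replication-independent genes rose, H2afx and Cenpa, and none of 14 chaperones or 7 processing genes, where 3.43% of all genes did. Myoid-like cells had 5 of 8 replication-independent genes lower than differentiating granule cells, H2afj, H2afy, H2afy2, H3f3b and H1f0, and of 9 chaperones Atrx was lower, where 18.1% of all genes were. H1f0, a linker histone gene of differentiated cells, stood there at 293 ± 149 against 1021 ± 229 CPM (SD, n = 3 mice).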

How the data were processed

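Drop-seq libraries from 3 mice were analysed. The values deposited are whole UMI counts for every gene in every barcode, not normalized. The submitters' processing notes name STAR and the mm10 build, and the counting settings are not given in the sources used here. Cells needed 500 UMIs and 200 genes, at most 4 SD above the median of either, and at most 10% mitochondrial transcripts, which left 2373 of 3481 barcodes with 3081202 UMIs. Doublets were limited only by the upper limits, with no caller run. Cells were clustered with Seurat 5.3.0 (sctransform 0.4.2, 3000 variable genes, 15 components, resolution 0.8) after holding out 82 histone-related genes. A cluster was named from at least 3 markers, more than of any other type, and stayed unnamed where its top 10 genes held more markers of another type. UMIs were summed per mouse and cell group and tested with edgeR 4.0.16 (TMM, filterByExpr, quasi-likelihood, Benjamini-Hochberg over all genes tested, called under 0.05). Since edgeR prints no standard error, each SE beside an edgeR difference was worked back from that difference and its F value. Such an SE is approximate, above all for small differences and low counts. Levels are UMIs per 1000000 (CPM).

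Cells outside the lineage were 940 interneuron, interneuron progenitor, glial, vascular and myeloid cells. All groups of a mouse share its animal, so its number pairs them, and their deviations correlated across genes at 0.0847 to 0.367. A block for mouse was an alternative, as were DESeq2 1.42.0, other filters, normalization, cluster settings and class cuts, and leaving out each mouse. On simulated counts the test recovered 96.8% of changes of 4 times and 40.4% of 2 times for proliferating against differentiating cells (4949 genes), with 0.763% false calls. Over the other 8 comparisons simulated it recovered at least 92.9% and 29%, and false calls reached 9.68% for the G2/M-marker cluster (3638 genes). Named members were the 20 with the most UMIs and, per comparison, those past the threshold. Further members and other genes named were chosen after their values were seen. The members, lists and tests were chosen with earlier results of these data known. Intervals and floors cover counting error only.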

Additional observations from a re-analysis of the deposited data

Results flagged for a closer look

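Barcodes that failed the cell filters, which enter no comparison, still held member UMIs. These were 448 UMIs in 1108 barcodes, or 197, 157 and 94 in mice 1, 2 and 3, above the limit of 3 counts that a count of 0 allows. Their level was 732 CPM over the 3 mice (807, 921 and 476 per mouse), against 1176, 1272 and 783 in passing cells.

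The cluster left unnamed, with 174 cells, enters no comparison and held 55 UMIs of Hist3h2a and 58 of Hist3h2ba, above the same limit. Hist3h2a stood at 22.9, 264 and 230 CPM in mice 1, 2 and 3 and Hist3h2ba at 114, 440 and 217. Hist1h1b had 4 UMIs in these cells. The mice gave 42, 10 and 122 of the cells, and no test was run on them.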

How the results depend on the processing

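The counts of members called between proliferating and differentiating cells (6), and between the interneuron groups (2), changed by over 1.5 times only without the filter on low counts, to 13 and 5, and were 5 to 6 and 2 to 3 without 1 mouse. In the interaction 0 members were called with edgeR or DESeq2 in every setting that could be fitted, and 0 to 1 had an unadjusted p under 0.05. For the G2/M-marker cluster the count of 3 became 1 with DESeq2, 6 without the filter, 0 with histone genes allowed in the clustering, where Hist1h1b turned to -0.44, and 1 to 4 without 1 mouse. For G2/M-only against S-only cells the count of 1 became 2 without the filter, with the replicate block, at a class cut of 5 and with another draw, 0 at a minimum of 1000 UMIs and at a class cut of 2, and 0 to 1 without 1 mouse. For S-only cells against cells with neither the count of 0 became 1 without the filter and 0 to 1 without 1 mouse. For the lineage against other types the count of 1 became 2 without the filter, 3 with the replicate block and at resolution 0.4, 0 at 1000 UMIs and with histone genes allowed, and 0 to 1 without 1 mouse. For myoid-like cells the count of 1 became 2 without the filter and stayed at 1 without mouse 1 or mouse 2. It was 0 at 1000 UMIs, at an upper limit of 2 SD and without mouse 3, where no member was tested. For both against S-only cells the count of 2 became 1 with DESeq2, at the upper limit of 2 SD and at a cut of 5, and 0 to 1 without 1 mouse. For both against G2/M-only cells the count of 1 became 2 at a cut of 2, 0 at a cut of 5 and with another draw, and 0 to 1 without 1 mouse. Unless stated, the cause of a change was not tested.

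Of 201 fold changes of called members in other settings, 169 kept direction and threshold, 31 kept direction only and 1 reversed. At resolution 0.4 no differentiating cluster was named, so 3 comparisons could not be fitted. The replicate block, which compares groups within a mouse, changed no other call of a member. Low counts limit what could be tested, since 19 members had fewer than 10 UMIs.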

Other observations

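The linker histone gene Hist1h1c held 31 UMIs and Hist1h1a 25, against 1082 of Hist1h1b. Hist1h1d, the remaining H1 gene, held 3. The 6 Hist2 genes together held 45 UMIs and the Hist4 gene 2. Of the 45 members, 22 were listed at 0 in at least 1 mouse, and these held 121 UMIs in all, or 3.94% of the total.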
